A study of Gallus gallus with 31 samples.

Results

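CHRNA3, CHRNA5, SS2, RTN1 and UGT8 are 5 genes with known roles in nerve cells or their sheaths, described here in chicken fat. They were taken by their symbols from 564 genes of an expression table of abdominal and cardiac adipose tissue. All were picked with results of these libraries known, from values that may include both their depot and their trial differences. For the 5 genes those differences are therefore given as a description, without a test. Tests of the 5 are kept to comparisons of the lines, including that of their depot differences, and to variation among libraries within a line. The line comparisons use libraries of the depot and trial comparisons, so their p-values are not free of the choice of genes. Some other genes named below were tested between the trials, and those p-values have no counterpart for the 5.

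Fast signalling in autonomic ganglia runs through nicotinic acetylcholine receptors, ion channels of 5 subunits that open when acetylcholine binds. CHRNA3 encodes the alpha subunit typical of ganglionic receptors, and CHRNA5 encodes an accessory subunit that joins them. Both lie side by side in the chicken genome, where the RefSeq table of assembly GRCg7b places CHRNA3 between CHRNB4 and CHRNA5. SS2 belongs to the somatostatin family of small inhibitory peptides, and the same table lists its Entrez number, 395106, as SST7. RTN1 encodes a reticulon of the endoplasmic reticulum that is abundant in neurons. UGT8 encodes the enzyme that adds galactose to ceramide, a step in making the lipids of myelin. Nerve fibres run through many fat depots, and the fat around the heart lies close to the cardiac ganglia.

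The study sequenced polyA RNA of fat from untreated male chickens killed 42 days after hatching. The labels name 2 lines, Ross, a commercial broiler given as Ross 708 in the design text, and Illinois, which they do not describe further. Illinois birds came from a trial called Fall 13, with 7 abdominal and 8 cardiac libraries. Ross birds came from Fall 13 and from an earlier trial, Fall 12, with 4 abdominal and 4 cardiac libraries in each. Whether each library stands for a bird of its own is not stated, and p-values here reflect only how much libraries vary within groups, which may be technical. The fitted model (limma) pools that variation of a gene over all groups of both depots. Its standard errors (SE) and p-values are therefore not specific to the groups compared. Exact permutation tests use only the libraries compared. Library numbers do not overlap between depots, lines or trials, so any batch that follows them cannot be told apart from those groups. A second number in the column headers is shared by 15 pairs of an abdominal and a cardiac library of the same line and trial. It may mark a bird, but its meaning is not stated, and the main fit treats the libraries as unpaired.

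Values are in FPKM, in which fragment numbers are divided by the length of the transcript and by the library total, with a floor of 0.001 that is no measured level. Total depth is not known, but steps between low values put the relative depth of the 31 libraries between 0.540 and 2.33 times a typical one. Depth differed by group, with medians of 0.615 and 0.680 in Ross abdominal fat of Fall 13 and Fall 12 and 1.53 in Illinois abdominal fat. In cardiac fat the medians were 0.864, 0.967 and 1.11 in the same order. At typical depth, 1 FPKM stood for an estimated 25.2 fragments of CHRNA3, 22.0 of CHRNA5, 30.5 of UGT8 and 5.77 of SS2. A count of 0 fragments at typical depth allows up to 0.520 FPKM of SS2 and up to 0.119 FPKM of CHRNA3, for counting error only. These bounds are higher at lower depth, as in Ross abdominal fat. CASQ2, the calcium store protein of heart muscle, set 4 cardiac libraries apart at more than 10 FPKM. These were Illinois libraries 1107 (36.3 FPKM) and 1112 (27.5 FPKM) and Ross Fall 12 libraries 1208 (77.2 FPKM) and 1209 (18.1 FPKM). CASQ2 was not confined to cardiac fat. Ross abdominal fat of Fall 13 held 0.672 to 5.10 FPKM (median 3.34 FPKM), against a median of 1.42 FPKM in Ross cardiac fat of that trial. In bulk tissue, fewer cells of a type and less RNA per cell cannot be told apart.

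In Ross cardiac fat, all 5 genes were higher in each of the 4 Fall 12 libraries than in any Fall 13 library. CHRNA3 and SS2 were also high in 6 of 8 Illinois cardiac libraries and near or at the floor in abdominal fat of both lines. CHRNA5 and UGT8 were low in most other groups, and RTN1 was present in both depots at overlapping levels. By groups without overlap between depots within a trial, the name "neural genes in cardiac fat" describes SS2 and UGT8 in Ross birds. It also describes CHRNA3 and CHRNA5 in Ross birds of Fall 12. This is only a description, since depot values may have entered the choice of genes. Of 440 genes tested, 11.8% were likewise higher in Ross birds of Fall 12, 17.7% in those of Fall 13 and 3.41% in Illinois birds. In Illinois birds all 5 genes overlapped between depots. Even so, 7 of 8 cardiac libraries there exceeded the abdominal median for each of SS2, CHRNA3 and UGT8, and 6 of 8 for CHRNA5. The name does not describe RTN1, which overlapped in every depot comparison.

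**Figure D1:**
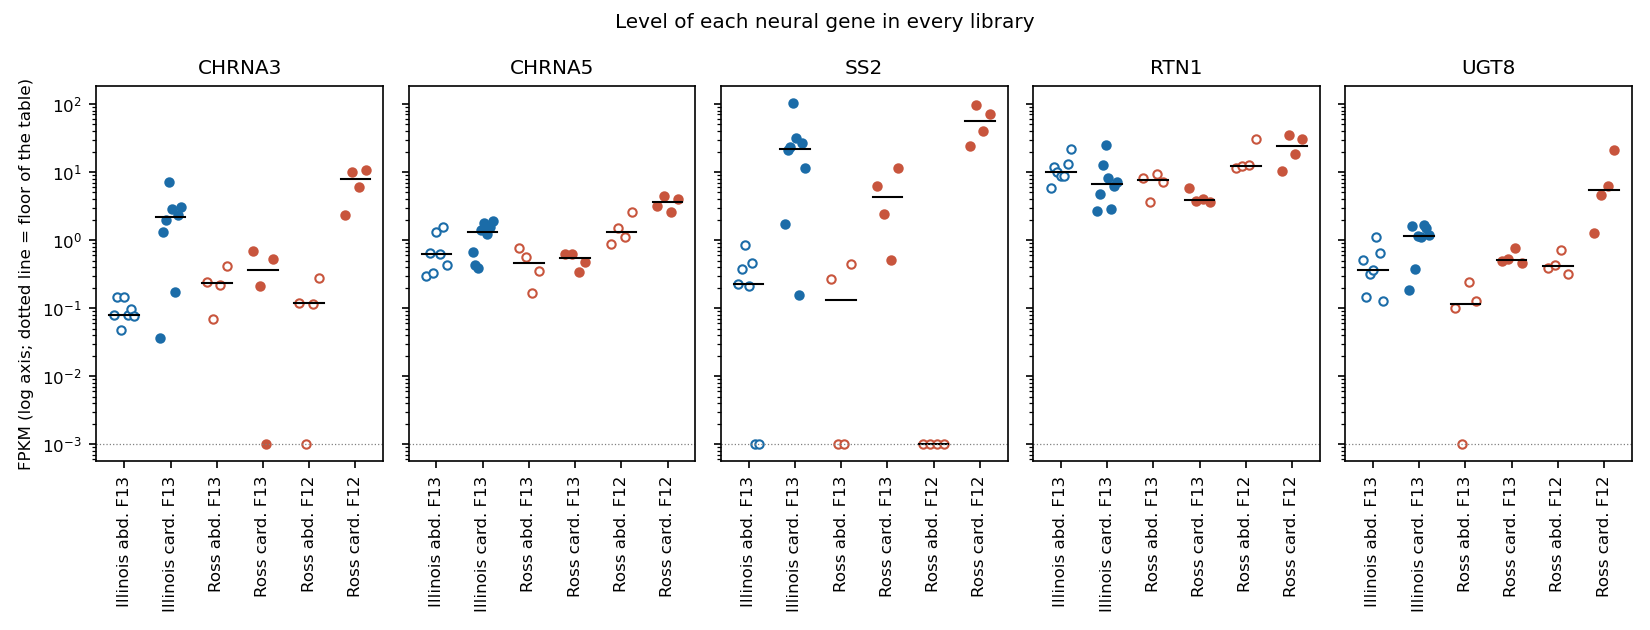
Level of CHRNA3, CHRNA5, SS2, RTN1 and UGT8 in each library (FPKM, log axis) by line, depot (abd., abdominal; card., cardiac) and trial (F12, Fall 12; F13, Fall 13). Each point is a library, open for abdominal and filled for cardiac fat, bars are group medians, and the dotted line is the floor of the table. SS2 lies at 24.1 to 95.6 FPKM in Ross cardiac fat of Fall 12 and at 0.507 to 11.3 FPKM in that of Fall 13.

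CHRNA3 (Entrez 386578) stood at 2.30, 9.999, 5.95 and 10.9 FPKM in Ross cardiac libraries 1208, 1209, 1210 and 1211 of Fall 12. In Ross cardiac fat of Fall 13 it was 0.697 FPKM in library 1204, 0.211 in 1205 and 0.5256 in 1207, and library 1206 was at the floor. The lowest Fall 12 library was thus above the highest Fall 13 library. Illinois cardiac fat ranged from 0.0369 to 7.06 FPKM, with a median of 2.16 FPKM. Its low libraries were 1107, with 0.0369 FPKM or an estimated 1 fragment, and 1112, with 0.173 FPKM, while the other 6 held 1.32 to 7.06 FPKM. No abdominal library passed 0.410 FPKM, an estimated 8 fragments. By group medians the order was Ross cardiac Fall 12 (7.98 FPKM), Illinois cardiac (2.16 FPKM), Ross cardiac Fall 13 (0.368 FPKM) and the 3 abdominal groups (0.0783 to 0.230 FPKM). Each neighbouring pair in that order overlapped in its libraries.

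CHRNA5 (Entrez 386577) ranged from 0.168 to 4.48 FPKM over all libraries. Ross cardiac libraries 1208, 1209, 1210 and 1211 of Fall 12 held 3.15, 4.48, 2.60 and 4.07 FPKM, above every other library of the study. Ross cardiac libraries 1204, 1205, 1206 and 1207 of Fall 13 held 0.627, 0.627, 0.335 and 0.476 FPKM. Illinois cardiac fat ranged from 0.383 to 1.87 FPKM with a median of 1.32 FPKM, which overlapped the 0.297 to 1.54 FPKM of Illinois abdominal fat (median 0.627 FPKM). Abdominal fat of Ross birds was at 0.871 to 2.54 FPKM in Fall 12 and at 0.168 to 0.754 FPKM in Fall 13, so this gene was higher in Fall 12 in both depots, with no overlap between the trials. Apart from Ross cardiac fat of Fall 12, groups that neighbour each other by median overlapped.

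SS2 reached the highest levels of the 5 genes and had the widest range. In Ross cardiac fat of Fall 12 it was 24.1 FPKM in library 1208, 95.6 in 1209, 40.7 in 1210 and 70.8 in 1211. In Ross cardiac fat of Fall 13 it was 6.13 FPKM in library 1204, 2.43 in 1205, 0.507 in 1206 and 11.3 in 1207, all below Fall 12. Illinois cardiac fat held a median of 21.9 FPKM, from 0.157 FPKM in library 1112 to 103 FPKM in library 1110. Library 1107 had 1.70 FPKM, and the other 6 Illinois cardiac libraries lay at 11.6 FPKM or above. Abdominal fat held little: all 4 Ross libraries of Fall 12 were listed at the floor, as were 2 of 4 Ross libraries of Fall 13, and the highest Illinois library had 0.844 FPKM, an estimated 8 fragments. The cardiac groups came in the same order of medians as for CHRNA3, with 55.7 FPKM in Ross Fall 12, 21.9 FPKM in Illinois and 4.28 FPKM in Ross Fall 13, and each neighbouring pair overlapped.

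RTN1 (Entrez 378791) was detected in every library, from 2.69 to 35.0 FPKM. Ross cardiac libraries 1208, 1209, 1210 and 1211 of Fall 12 held 10.3, 35.0, 18.2 and 30.3 FPKM. Ross cardiac libraries 1204, 1205, 1206 and 1207 of Fall 13 held 5.79, 3.80, 3.98 and 3.62 FPKM, again with no overlap. Abdominal fat overlapped cardiac fat: Ross libraries of Fall 12 had 11.3 to 30.9 FPKM, Ross libraries of Fall 13 had 3.61 to 9.23 FPKM and Illinois libraries had 5.75 to 21.6 FPKM. The Illinois cardiac median of 6.67 FPKM (2.69 to 24.6 FPKM) was below the Illinois abdominal median of 10.2 FPKM. By medians RTN1 was highest in both Ross depots of Fall 12 (24.3 FPKM cardiac and 12.4 FPKM abdominal) and lowest in Ross cardiac fat of Fall 13 (3.89 FPKM), and neighbouring groups in that order overlapped.

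UGT8 (Entrez 374033) stood highest in Ross cardiac fat of Fall 12, with wide variation. Ross cardiac libraries 1208, 1209, 1210 and 1211 of Fall 12 held 1.27, 4.55, 6.31 and 21.1 FPKM, so library 1211 carried most of the group's mean of 8.30 ± 8.76 FPKM (SD, n = 4). Ross cardiac libraries 1204, 1205, 1206 and 1207 of Fall 13 held 0.488, 0.522, 0.775 and 0.459 FPKM. Illinois cardiac fat ranged from 0.182 to 1.68 FPKM with a median of 1.16 FPKM. Library 1112, which was low in CHRNA3 and SS2, was the highest Illinois cardiac library for UGT8. Abdominal fat lay between the floor and 1.10 FPKM. Neighbouring groups by median, from Ross cardiac Fall 12 (5.43 FPKM) down to Ross abdominal Fall 13 (0.113 FPKM), overlapped.

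Between the depots, the cardiac excess was largest in Ross birds of Fall 12. Fitted differences of cardiac minus abdominal fat in log2(FPKM + 1) were 2.72 ± 0.42 (SE) for CHRNA3, 5.70 ± 0.84 for SS2, 2.20 ± 0.39 for UGT8, 0.89 ± 0.26 for CHRNA5 and 0.45 ± 0.47 for RTN1. With an abdominal group at the floor, the value for SS2 depends on the added 1 and bounds no fold change, and the scale understates changes of genes below about 1 FPKM. In this comparison 4 of 5 genes did not overlap between depots, RTN1 being the exception, against 11.8% of the 440 genes tested, and nothing is read from that count because depot values entered the choice of genes. In Illinois birds the same difference was 1.34 ± 0.31 for CHRNA3, 3.50 ± 0.61 for SS2, 0.31 ± 0.19 for CHRNA5, 0.50 ± 0.28 for UGT8 and -0.55 ± 0.34 for RTN1. There 0 of 5 genes were free of overlap (3.41% of genes tested were, in the higher direction). For CHRNA3 only library 1107 reached into the abdominal range, and for SS2 only library 1112. Leaving out those 2 libraries frees CHRNA3 and SS2 of overlap by construction (2 of 5 genes, against 6.14%), so nothing is read from that count. The difference of CHRNA5 in Illinois birds turned to -0.13 after quantile normalization.

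In Ross birds of Fall 13, cardiac and abdominal fat were closer. The depot difference was 1.99 ± 0.84 for SS2, 0.48 ± 0.39 for UGT8, 0.11 ± 0.42 for CHRNA3, 0.07 ± 0.26 for CHRNA5 and -0.55 ± 0.47 for RTN1. SS2 and UGT8, 2 of 5 genes, were free of overlap, and 17.7% of the genes tested were likewise higher. The sign for CHRNA3 turned with a pseudocount of 0.01 (-0.27), and that for CHRNA5 after quantile normalization (-0.0022).

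Between the trials, the 5 genes differed in Ross cardiac fat by more than the median gene. Fall 13 minus Fall 12 was -2.47 ± 0.42 for CHRNA3, -1.58 ± 0.26 for CHRNA5, -3.49 ± 0.84 for SS2, -2.09 ± 0.47 for RTN1 and -2.11 ± 0.39 for UGT8 in log2(FPKM + 1). Mean FPKM was 20.3 times as high in Fall 12 for CHRNA3, 11.4 times for SS2, 14.8 times for UGT8, 6.92 times for CHRNA5 and 5.46 times for RTN1. The ratio was 7.20 for UGT8 without library 1211 and 19.1 for SS2 without library 1207, and leaving out any other single library moved none of the 5 ratios by over 1.5 times. The median of the 5 differences was -2.11, and that of all genes tested was -0.17. No overlap was seen for 5 of 5 genes, against 10.9% of the genes tested in this direction, and this count too is only a description. These comparisons share the Ross cardiac libraries of Fall 12 with the depot comparison. Without libraries 1208 and 1209 the differences were -2.77, -1.50, -3.57, -2.23 and -3.03 in the same order of genes, and after quantile normalization they lay between -3.33 and -1.23.

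In Ross abdominal fat the trials differed less. The corresponding differences were 0.13 ± 0.42 for CHRNA3, 0.22 ± 0.84 for SS2, -0.39 ± 0.39 for UGT8, -0.75 ± 0.26 for CHRNA5 and -1.08 ± 0.47 for RTN1. CHRNA5, RTN1 and UGT8 were free of overlap, 3 of 5 genes, against 28% of the genes tested. The trial difference in cardiac fat minus that in abdominal fat was -2.60 ± 0.60 for CHRNA3, -3.71 ± 1.19 for SS2, -1.72 ± 0.55 for UGT8, -1.002 ± 0.66 for RTN1 and -0.82 ± 0.37 for CHRNA5. Over all genes tested, limma called 10.7% between the trials in cardiac fat, 24.5% in abdominal fat and 0.909% for the difference between the depots.

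**Figure D2:**
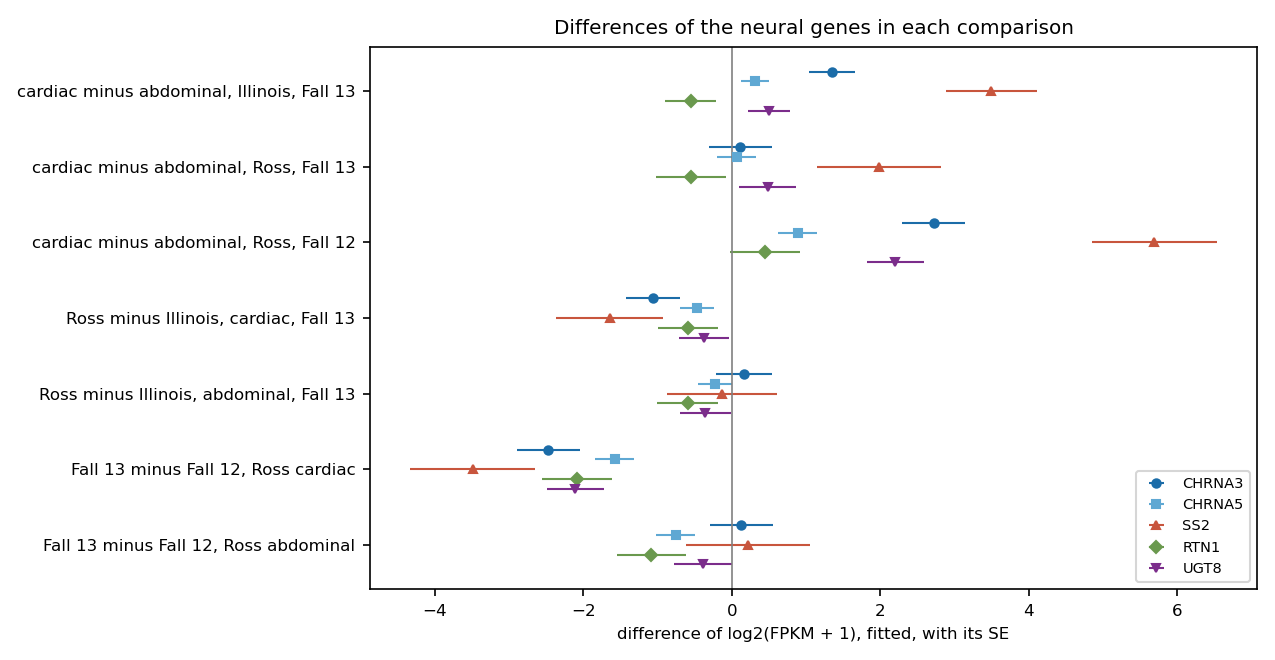
Fitted differences of the 5 genes in log2(FPKM + 1), with bars of 1 SE, for 7 comparisons of depot, line and trial. All 5 genes lie left of 0 for Fall 13 minus Fall 12 in Ross cardiac fat (-1.58 to -3.49), while in the line comparison of cardiac fat they lie between -1.65 and -0.38.

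Lines could be compared only within Fall 13. In cardiac fat the Ross mean was 0.359 ± 0.312 FPKM for CHRNA3 (SD, n = 4) and the Illinois mean was 2.36 ± 2.21 FPKM (SD, n = 8). For SS2 the means were 5.08 ± 4.74 FPKM in Ross and 27.2 ± 32.6 FPKM in Illinois birds. Every Ross library was below the Illinois median for each of the 5 genes, but the lines overlapped for all of them. This is only a description, without the share of all genes beside it. Both groups also enter the depot comparisons, and the Ross group enters the trial comparison, so the p-values below are no independent test. Ross minus Illinois was -1.06 ± 0.37 for CHRNA3 (limma, adjusted p = 0.0788) and -1.65 ± 0.73 for SS2 (limma, adjusted p = 0.192). It was -0.47 ± 0.23 for CHRNA5 (limma, adjusted p = 0.230), -0.59 ± 0.41 for RTN1 (limma, adjusted p = 0.404) and -0.38 ± 0.33 for UGT8 (limma, adjusted p = 0.564). None of the 5 genes passed the threshold of 0.05, and 5.45% of the genes tested did. Two-sided exact permutation tests over the 12 libraries gave unadjusted p-values of 0.0606 for CHRNA3, 0.0687 for CHRNA5, 0.182 for SS2, 0.253 for RTN1 and 0.123 for UGT8.

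That outcome turned on Illinois libraries 1107 and 1112, which were also the lowest of their group in CHRNA3 and in SS2. Leaving them out raises the Illinois mean of both genes by construction. The p-values of such fits are therefore no independent test of the line difference. With the 4 libraries with CASQ2 above 10 FPKM left out, Ross minus Illinois was -1.51 for CHRNA3 (limma, adjusted p = 0.000568) and -2.66 for SS2 (limma, adjusted p = 0.00117). The other 3 genes did not pass, and 3.49% of the genes tested were called lower in that fit. Leaving out 1112 alone gave adjusted p = 0.0470 in limma for both CHRNA3 and SS2, and leaving out 1107 alone gave 0.0274 for CHRNA3. With any other single library of these groups left out, neither gene passed.

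In abdominal fat limma called none of the 5 genes between the lines, with a spread pooled over both depots. For CHRNA3 the SE was 0.38 in abdominal and 0.37 in cardiac fat. Its SD was 0.038 FPKM in Illinois and 0.139 FPKM in Ross abdominal fat, against 2.21 and 0.312 FPKM in cardiac fat. For genes with such unequal spreads, the limma p-values cannot decide whether the lines differ in abdominal fat. Ross minus Illinois was 0.17 for CHRNA3, -0.23 for CHRNA5, -0.13 for SS2, -0.59 for RTN1 and -0.36 for UGT8, with limma adjusted p-values of 0.810, 0.547, 0.920, 0.352 and 0.518. None of 5 passed, beside 15.5% of the genes tested. CHRNA3 and SS2 are among the genes tested only through cardiac libraries, since no abdominal library reached 1 FPKM for either. For CHRNA3 a two-sided exact permutation test gave an unadjusted p of 0.0242, at levels of 1 to 8 estimated fragments a library and as 1 of 10 such tests, and 3 of 4 Ross values exceeded the Illinois median. The depot difference of Ross birds minus that of Illinois birds is built from depot values, which may have entered the choice of genes. Its p-values are therefore no independent test. It was -1.23 ± 0.52 for CHRNA3 (limma, adjusted p = 0.168) and -1.51 ± 1.04 for SS2 (limma, adjusted p = 0.424). For CHRNA5 it was -0.24 (limma, adjusted p = 0.718), turning to 0.12 after quantile normalization, for UGT8 it was -0.02 (limma, adjusted p = 0.982), turning to 0.49, and for RTN1 it was 0.00038 (limma, adjusted p = 0.999), turning to -0.088. With an additive trial term in place of 6 group means, CHRNA3 and SS2 turned as well, to 0.07 and 0.34. Again 0 of 5 genes passed, and 3.18% of the genes tested did. Without the 4 libraries with CASQ2 above 10 FPKM, CHRNA3 (-1.68, adjusted p = 0.00711 in limma) and SS2 (-2.52, adjusted p = 0.0302 in limma) passed, while 0.698% of the genes tested were called in that direction. That fit too leaves out Illinois libraries 1107 and 1112, the lowest of Illinois cardiac fat in both genes, so it is no independent test.

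Whether the genes rose in the same cardiac libraries was tested within each line, as given below. Ranks over all 16 cardiac libraries mix the lines and trials. They in part restate the trial difference and are only a description. In them, Ross Fall 12 libraries 1209, 1210 and 1211 were in the top 4 for all 5 genes. Illinois library 1110 was in the top 4 for CHRNA3, SS2 and RTN1 but ranked 8 for CHRNA5 and 9 for UGT8. At the other end, Illinois library 1107 was among the lowest 4 for every gene but CHRNA5. Libraries 1112, 1205, 1206 and 1207 were among the lowest 4 for 3 genes each.

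**Figure D3:**
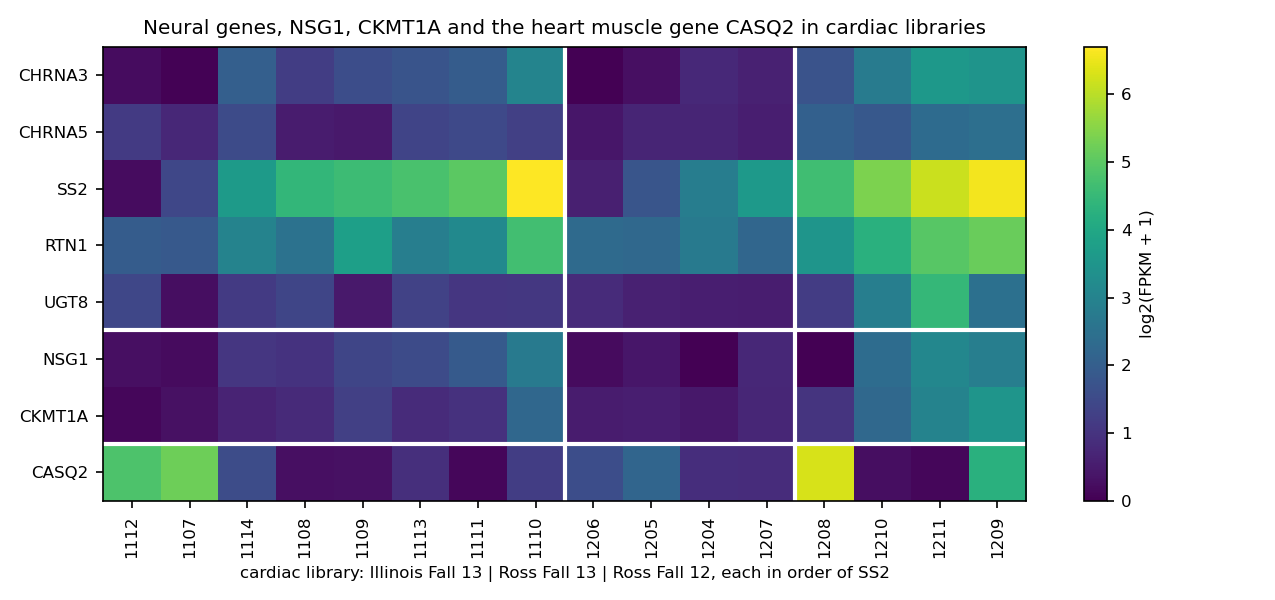
Levels in log2(FPKM + 1), by colour, of the 5 genes, of NSG1 and CKMT1A and of the heart muscle gene CASQ2 in the 16 cardiac libraries, grouped by line and trial and ordered by SS2 within each group. The 3 Ross Fall 12 libraries at the right and Illinois library 1110 are bright for CHRNA3, SS2 and RTN1, and Illinois libraries 1112 and 1107 are dark for these genes and bright for CASQ2.

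Among the 8 Illinois cardiac libraries, CHRNA3, SS2 and RTN1 varied together. The share of all gene pairs that vary as closely is not given, so this is not shown to be particular to them. Over the 16 cardiac libraries, centred on line and trial, CHRNA3 had r of 0.911 with RTN1 and 0.900 with the endothelial gene SOX18. Pearson's r of log2(FPKM + 1) was 0.914 for CHRNA3 and SS2, 0.906 for CHRNA3 and RTN1 and 0.862 for SS2 and RTN1. The two-sided exact permutation p-values were 0.00414, 0.00298 and 0.00749, each with an adjusted p of 0.0375 over 20 pairs of genes and lines. Spearman's rho was 0.738, 0.833 and 0.810, with exact permutation p-values of 0.0458, 0.0154 and 0.0218, and none passed after adjustment (0.229, 0.185 and 0.185). Without the 2 libraries farthest from the median of the first gene, r was 0.742, 0.817 and 0.790. Neither UGT8 (r from -0.03 to 0.24, adjusted exact permutation p of at least 0.764) nor CHRNA5 (r from 0.16 to 0.44) varied detectably with them. With 8 libraries this cannot show that they vary apart. On leaving out 1 library, r of UGT8 with CHRNA3 ran from -0.32 to 0.56.

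The Ross cardiac libraries fall into separate clusters by trial, so each was centred on its trial and permuted within it, and 4 libraries in a trial are too few for a value of their own. CHRNA3 and SS2 then varied together (r = 0.767, exact permutation p = 0.00694, adjusted p = 0.0375, and rho = 0.762, exact permutation p = 0.0278, adjusted p = 0.185), and r was 0.869 without the 2 farthest libraries. CHRNA3 and RTN1 had r = 0.927 (exact permutation p = 0.0243), which did not pass after adjustment (0.0972). None of the other 8 pairs passed. These 4 calls were lost with a pseudocount of 0.1 (adjusted exact permutation p = 0.0526), with upper quartile scaling (0.0820 to 0.0835) and without the libraries with CASQ2 above 10 FPKM (at least 0.546, with r still 0.742 to 0.817). The Ross call was lost on leaving out any 1 of its libraries, and all 3 Illinois calls on leaving out 1107, 1110, 1111 or 1112.

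**Figure D4:**
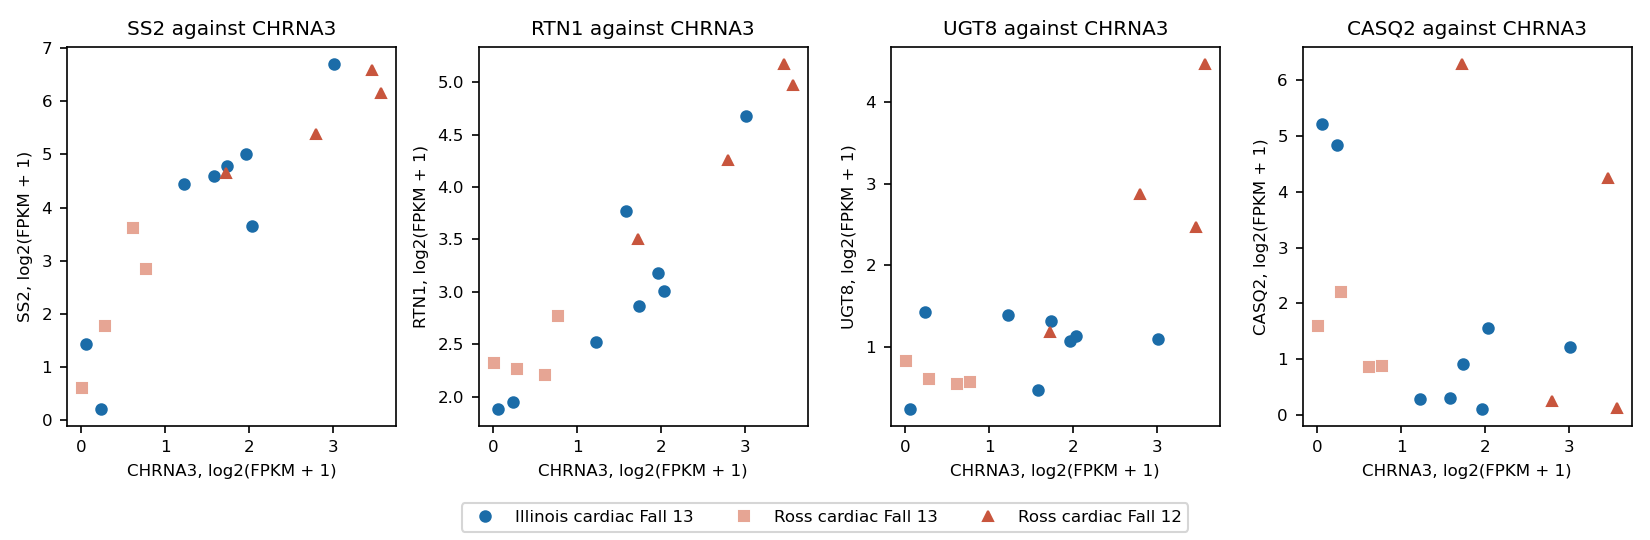
SS2, RTN1, UGT8 and CASQ2 against CHRNA3 in the 16 cardiac libraries, all in log2(FPKM + 1), with a point for each library and a symbol for each line and trial. Within the Illinois libraries SS2 and RTN1 rise with CHRNA3 (r = 0.914 and 0.906), and UGT8 does not detectably (r = 0.24).

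Muscle, fat and vessel genes moved with some of these libraries. In Illinois cardiac fat r with CASQ2 was -0.750 for CHRNA3 (exact permutation p = 0.0360) and -0.859 for SS2 (exact permutation p = 0.0214), and neither passed over the 10 relations with CASQ2 (adjusted p = 0.180). By ranks they were weaker, with Spearman's rho of -0.333 (exact permutation p = 0.428) and -0.643 (exact permutation p = 0.0962). Without the 2 libraries farthest from the CHRNA3 or SS2 median, r was 0.577 and 0.035, so these relations rest on those libraries. For RTN1 r was -0.644, and -0.747 without its 2 farthest libraries, for UGT8 -0.254 and for CHRNA5 -0.051. In Ross cardiac fat, centred on trial, r was -0.840 for UGT8, -0.621 for CHRNA3, -0.452 for RTN1, -0.310 for SS2 and 0.130 for CHRNA5. None of the 10 relations passed. Ross library 1209, also rich in CASQ2, ranked 1 to 3 for each of the 5 genes. Of 20 heart muscle markers only CASQ2 and MYH7B were among the genes analysed, and their summed level was 0.206 to 190.3 FPKM in Illinois cardiac fat, 0.226 to 172.1 FPKM in Ross cardiac fat of Fall 12 and 0.865 to 22.4 FPKM in that of Fall 13. The sum was 0.9325 to 9.25 FPKM in Ross abdominal fat of Fall 13, where its median of 6.27 FPKM exceeded the 2.89 FPKM of cardiac fat. The 4 fat cell markers present of 13 (FABP4, PPARG, CAV1 and LEPR) summed to 4035 FPKM in library 1107 and 2108 FPKM in 1112, the lowest of the Illinois cardiac libraries, whose highest was 15500 FPKM. Their range was 5039 to 17180 FPKM in Ross cardiac fat of Fall 12 and 8780 to 26330 FPKM in that of Fall 13. These sums are nearly all FABP4, with an Illinois cardiac mean of 8868 FPKM beside 169 FPKM for CAV1. The 5 endothelial markers present of 12 (CDH5, CLDN5, FLT1, ERG and SOX18) summed to 83.2 FPKM in library 1107 and to 243.7 FPKM in library 1110, the ends of the Illinois cardiac range. They overlapped between the trials in Ross cardiac fat, with 130.5 to 305.2 FPKM in Fall 12 and 103.2 to 203.5 FPKM in Fall 13. PTPRC and IGJ, 2 of 12 immune markers, summed to 614.8 FPKM in library 1210, of which IGJ made up 579 FPKM. The sum was 20.2 to 102.0 FPKM in the other Ross cardiac libraries of Fall 12. It was 20.9 to 91.8 FPKM in Ross cardiac fat of Fall 13 and 23.4 to 176.4 FPKM in Illinois cardiac fat. PTPRC alone was 15.3 to 40.1 FPKM in Ross cardiac fat of Fall 12. TBX18, the 1 marker of 10 for epicardium, was 10.1 to 13.9 FPKM in Ross cardiac fat of Fall 12 and 11.6 to 17.3 FPKM in that of Fall 13, and 7.78 to 27.9 FPKM in Illinois cardiac fat. The part of these cells in the results was not tested.

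Other genes of nerve tissue could be followed only in part. None of 46 markers of autonomic and sensory neurons and none of 7 of smooth muscle were among the genes analysed, so the presence of neurons could not be checked from their defining genes. GJB1, a gap junction gene of Schwann cells that other cells also use and the 1 of 21 Schwann and myelin markers present, was at 9.12, 24.2 and 24.5 FPKM in Ross cardiac libraries 1208, 1209 and 1211 and at the floor in 1210. In Ross abdominal fat of Fall 12 it was at 15.8 to 47.8 FPKM, with a median of 21.9 FPKM against 16.7 FPKM in cardiac fat. Ross birds of Fall 13 held 2.23 to 6.32 FPKM in cardiac and 1.815 to 3.97 FPKM in abdominal fat. Fall 13 minus Fall 12 was -2.60 ± 0.74 in abdominal fat (limma adjusted p = 0.0108) and -1.02 ± 0.74 in cardiac fat (limma adjusted p = 0.4195). Illinois cardiac fat held 1.77 to 14.5 FPKM of GJB1. The nicotinic list held 3 of 17 subunits. CHRNA7, a subunit that can form a receptor by itself and the third present, was above the floor in 3 cardiac libraries, at 3.83 FPKM in Ross library 1211, 2.77 FPKM in Ross library 1209 and 0.985 FPKM in Illinois library 1110. The same 3 libraries held the 3 highest levels of CHRNA3 and of SS2. In abdominal fat CHRNA7 was above the floor in 1 library, at 0.299 FPKM.

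The neuronal channel list held 5 of 28 genes, and 2 of the 5 were high enough for the fit. KCNA2, a potassium channel of axons, was 1.58 to 3.21 FPKM in Ross cardiac fat of Fall 12 and 1.56 to 3.95 FPKM in that of Fall 13 (difference -0.11 ± 0.23, limma adjusted p = 0.841). KCNMA1, a calcium-activated potassium channel also found in smooth muscle, differed by -0.42 ± 0.26 (limma adjusted p = 0.326). Cardiac minus abdominal fat was 0.85 ± 0.23 for KCNA2 in Ross Fall 13, 0.43 ± 0.17 in Illinois and 0.41 ± 0.23 in Ross Fall 12. For KCNMA1 it was -0.64 ± 0.26, -0.43 ± 0.19 and -0.64 ± 0.26 in the same order. CACNA1B, the pore of the presynaptic N-type calcium channel, was too low for the fit, with 0.0879 to 0.448 FPKM in Ross cardiac fat of Fall 12 and at most 0.00762 FPKM in that of Fall 13. KCND2, a potassium channel of neurons and heart muscle, was likewise at 0.249 to 0.639 FPKM in Fall 12 and at most 0.0873 FPKM in Fall 13. MUSK, a receptor kinase of the neuromuscular junction and the 1 of 15 other acetylcholine genes present, differed by -0.25 ± 0.31 between the trials in Ross cardiac fat (limma adjusted p = 0.673). SGMS1, a sphingomyelin synthase and the other gene beside UGT8 of 13 for sphingolipids, differed by -0.49 ± 0.25 between the trials in cardiac fat (limma adjusted p = 0.233). It fell by 0.87 in Ross abdominal fat from Fall 12 to Fall 13 (limma adjusted p = 0.0115). RTN4, the other reticulon present of 5, was listed at the floor in every library but 1, and SS2 was the 1 gene present of 23 for somatostatin and neuropeptides.

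The genes most like each of the 5 were found by r of log2(FPKM + 1), as a description over libraries that share depots and depth. Over all 31 libraries CHRNA3 was most like CKMT1A (r = 0.936), a mitochondrial creatine kinase, NSG1 (0.934), a gene of endosomes in neurons, and SS2 (0.932). SS2 was most like CHRNA3, CKMT1A (0.873) and NSG1 (0.866). NSG1 was 6.26, 4.15 and 7.54 FPKM in Ross cardiac libraries 1209, 1210 and 1211 and 5.78 FPKM in Illinois library 1110, but at the floor in Ross library 1208. CKMT1A was 10.2, 3.78 and 6.99 FPKM in the same Ross libraries, 3.73 FPKM in 1110 and 1.01 FPKM in 1208. UGT8 was most like CKMT1A (0.819), PI15 (0.803) and CHRNA3 (0.791), CHRNA5 like FKBP1B (0.746), ARVCF (0.745) and UGT8 (0.704), and RTN1 like ABCA1 (0.793), FZD4 (0.757) and BMPR2 (0.709).

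Over the 16 cardiac libraries, centred on line and trial, CHRNA3 was most like RTN1 (r = 0.911) and then 2 endothelial genes, SOX18 (0.900) and CLDN5 (0.898). SS2 was most like CHRNA3 (0.876), FABP4 (0.795), which carries fatty acids inside fat cells, and RTN1 (0.794). RTN1 was most like CHRNA3, CKMT1A (0.897) and TBX3 (0.839). UGT8 and CHRNA5 had other neighbours, led by COL11A1 (0.883) for UGT8 and LOC395100 (0.762) for CHRNA5.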

How the data were processed

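The authors deposited 1 FPKM value per gene and library. The submitters' processing notes name Bowtie, TopHat and Cufflinks. No version, build or gene annotation is given in the sources used here. The unit was taken from the tool and the values, since the file headers name none. FPKM divides by each library's total, so an abundant gene lowers all others. Of 567 lines, 566 were complete and 2 duplicates were removed, leaving 564 genes, and 0 columns were unmatched. The 5 genes and all lists were chosen with earlier results of these data known. What chose the genes is not recorded, so their planned trial tests are not reported. limma 3.58.1 (R 4.3.3) was fitted to log2(FPKM + 1) of the 440 genes that reached 1 FPKM in 4 or more libraries, all 5 included. CHRNA3 and SS2 passed this filter only through cardiac libraries. The fit had 6 group means over 31 libraries, a mean-variance trend and robust moderation. Its two-sided p-values had Benjamini-Hochberg adjustment and were called below 0.05. On simulated data for the trial difference in Ross cardiac fat (440 genes), 60% of changes of 1 and 84% of changes of 2 on the log2 scale were recovered, with 1 false call. The simulated noise was independent and normal, with the same spread of a gene in all groups. These rates therefore do not carry over to the line tests, where the spreads of groups differ. Relative depth came from steps of low values, of which 81.6% of 1622 were within 0.05 fragments of whole. Beside the 5, values of single genes are given for at most 4 per list, those of highest mean FPKM, and for the 3 of highest r. Alternatives were other pseudocounts, filters, scalings and models, and leaving out libraries.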

Additional observations from a re-analysis of the deposited data

Results flagged for a closer look

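RTN1 stood at 30.9 FPKM in Ross abdominal library 1202 of Fall 12, far from the 11.3 to 12.6 FPKM of the other 3 libraries of its group. Of 30 sets of values of a gene in a group examined, 1 held such a library, where chance gives about 1 in 20.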

How the results depend on the processing

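No member was called in opposite directions between lines under the alternatives run. The members called between lines in cardiac fat numbered 0, or 2 without the libraries with CASQ2 above 10 FPKM and 1 with median ratio scaling (0 to 2 on leaving out a library), and in abdominal fat 0, or 1 (UGT8) with a pseudocount of 0.01 (0 to 0). Over all genes these counts were 24 in cardiac fat (37 with median ratio scaling; 8 to 29 on leaving out a library) and 68 in abdominal fat (33 to 67). Between trials the members are not tested. Over all genes 47 were called in cardiac fat (29 to 48 on leaving out a library) and 108 in abdominal fat (84 to 108). An additive trial term, which both depots share, called 136, and its depot by line difference joins both Ross trials. For the depot by line difference 0 members were called (2 without the CASQ2-rich libraries; 0 to 0) among 14 genes (27 and 30 with pseudocounts of 0.1 and 0.01, 46 with the additive term, 35 with the replicate block; 7 to 25). For the depot by trial difference 4 of all genes were called (15 unfiltered, 2 with quantile normalization, 8 without the CASQ2-rich libraries, 8 with the block; 0 to 11). Members free of overlap between depots in Illinois birds numbered 0, or 2 by construction without the CASQ2-rich libraries (0 to 1 on leaving out a library). In Ross birds they were 4 to 4 in Fall 12 and 2 to 2 in Fall 13. Correlated pairs fell from 3 in Illinois birds (0 to 3) and 1 in Ross birds (0 to 0) to 0 and 0 with a pseudocount of 0.1, upper quartile scaling or without the CASQ2-rich libraries, and were 10 in Ross birds uncentred. Apart from fewer libraries or genes, the cause was not tested.

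Scaling moved the median of all genes between trials from -0.17 to 0.05 in cardiac and from -0.29 to 0.02 in abdominal fat (quantile normalization). The block and median ratio scaling were chosen after seeing the data. The block used a second number in the column headers, of unstated meaning, shared by 15 pairs of abdominal and cardiac libraries. Deviations correlated by -0.114 to 0.439, above 0.1 in 9 of 15 pairs, and 5 libraries matched their own number best. That check cannot decide whether a shared number marks a bird. The main fit left the libraries unpaired because no label gives the meaning of the number. The block changed no member's call between lines. Low levels of CHRNA3 and SS2 in abdominal fat rest on few fragments.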

Other observations

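The abdominal and cardiac libraries that share a header number were compared for each gene, in 7 Illinois pairs and 8 Ross pairs centred on their trial. None of the 10 relations passed after adjustment. The highest were r = 0.777 for SS2 in Ross birds (two-sided exact permutation p = 0.167, adjusted p = 0.556; Spearman's rho = 0.792) and r = 0.718 for UGT8 in Illinois birds (exact permutation p = 0.0724, adjusted p = 0.530; rho = 0.714).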
